A study of Homo sapiens with 4 samples.

Results

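The ADAM and ADAMTS genes were followed by RNA-seq in U2OS, an established cell line from a human osteosarcoma, in 2 shGREM1 and 2 shControl libraries. The members are the protein-coding rows of the deposited count table named ADAM, ADAMTS or ADAMTSL followed by a number, and there were 44 of them among 58735 genes: 20 ADAM, 19 ADAMTS and 5 ADAMTSL. The name shGREM1 stands for a knockdown of GREM1, which encodes the secreted BMP antagonist gremlin 1, and shControl for its control. The labels name no hairpin sequence, clone or time of harvest. Nothing in them says that replicate libraries are separate cultures, and the spread behind each p-value may therefore be technical.

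ADAM proteins are membrane-anchored and combine a metalloproteinase domain with a disintegrin domain. Those with an active site act as sheddases, which cut growth factors, cytokines and adhesion molecules from the cell surface, and others lack the zinc-binding catalytic motif and serve in adhesion. ADAMTS proteins are secreted, carry thrombospondin repeats and cut matrix proteins such as proteoglycans and procollagens, while the ADAMTS-like (ADAMTSL) proteins share the repeats and lack the protease domain. In bone and cartilage the ADAMTS enzymes are best known for the turnover of aggrecan and the maturation of fibrillar collagen.

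Library totals ran from 15492826 to 16353015 counts. GREM1 itself had 1 and 1 counts in shGREM1 and 2 and 0 in shControl. Its RNA was thus near the limit of detection in shControl too, and the knockdown could not be checked at this depth. Whether the differences below follow from a loss of GREM1 was not tested. The osteosarcoma markers VIM, SPARC and RUNX2 were all measured, at 65.8 to 1365 CPM (counts as a rate of the library total, scaled by TMM factors) in shGREM1 and 64.8 to 876 CPM in shControl, whereas COL1A2 stood at 0.518 to 1.22 CPM in the 4 libraries. SPARC rose (log2 fold change 0.51, edgeR adjusted p = 0.0155). So did COL1A1, another marker of this list, at 577 to 926 CPM in the 4 libraries (log2 fold change 0.50, edgeR adjusted p = 0.0172). The bone marker ALPL had 3.90 and 7.34 CPM in shGREM1 and 13.5 and 8.68 CPM in shControl, without overlap, but missed the threshold (log2 fold change -0.98; edgeR adjusted p = 0.0888). Of the leukocyte markers, PTPRC had 10 and 9 counts in shGREM1 and 5 and 9 in shControl, CD74 had 13 and 7 counts in shGREM1 and 9 and 23 in shControl, and CD3E had 0 counts in both shGREM1 libraries and 0 and 2 in shControl. The 3 endothelial markers PECAM1, CDH5 and VWF summed to 10.1 CPM in the lowest library and 16.7 CPM in the highest. The 4 epithelial markers EPCAM, CDH1, KRT5 and KRT14 had no member at 0. They summed to 32.6 and 58.9 CPM in shGREM1 against 17.1 and 23.1 CPM in shControl. EPCAM rose (log2 fold change 0.99, edgeR adjusted p = 0.0123). KRT14 alone had 17.1 and 43.2 CPM in shGREM1 and 9.07 and 14.3 CPM in shControl and did not pass (edgeR adjusted p = 0.381). CDH1 and KRT5 did not pass either (edgeR adjusted p = 0.413 and 0.349). The part of these markers in the results was not tested. In bulk RNA, fewer cells of a type and less RNA per cell cannot be told apart.

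ADAM15 rose in shGREM1, and ADAMTSL4, ADAM32 and ADAMTS12 fell. Of the 44 members, 32 passed the count filter and entered the test over 18442 genes. Of those, 1 rose, 3 fell and 28 did not pass (edgeR's quasi-likelihood test with a Benjamini-Hochberg adjusted p below 0.05), so that 12.5% of the kept members were called beside 7.69% of all genes tested. By direction, 3.57% of all genes tested rose and 4.12% fell. The median log2 fold change (shGREM1 minus shControl) was -0.07 over the kept members and 0.0049 over all genes tested, with 11 members above 0 and 21 below. Groups did not overlap in 20 members, with shGREM1 above in 9 and below in 11, and among all genes tested 27.0% lay above, 26.6% below and 53.6% in either way.

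The promoters of the 3 called genes for which a sequence is shown are given first, because these genes carry called differences. No sequence is shown for ADAM32, the other called gene. The sequences are RefSeq's (GRCh38.p14), from 250 bases before to 50 after the annotated start, and 29 of the 44 members had one. Capitals mark matches on either strand to NF-kB, AP-1 or GC-rich SMAD motifs, binding motifs of the inflammatory, stress-responsive and BMP pathways. The NF-kB motif is GGGA and CC with 4 free bases between them, and the SMAD element is GGCGCC. The AP-1 motif was searched in a loose form, TGANTCA, with its middle base free. The RefSeq start lies 39 bases from the gene's outer end in the count table for ADAMTSL4, 202 bases for ADAMTS12 and 750 bases for ADAM15.
ADAMTSL4, chr1:150549158-150549457, plus strand: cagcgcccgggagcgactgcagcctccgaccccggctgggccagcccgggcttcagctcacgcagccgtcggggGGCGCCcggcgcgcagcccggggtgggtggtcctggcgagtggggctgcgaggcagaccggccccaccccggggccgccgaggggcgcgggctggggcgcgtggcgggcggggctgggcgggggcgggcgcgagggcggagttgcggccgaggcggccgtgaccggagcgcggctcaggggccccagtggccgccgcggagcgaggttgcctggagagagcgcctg
ADAM15, chr1:155051066-155051365, plus strand: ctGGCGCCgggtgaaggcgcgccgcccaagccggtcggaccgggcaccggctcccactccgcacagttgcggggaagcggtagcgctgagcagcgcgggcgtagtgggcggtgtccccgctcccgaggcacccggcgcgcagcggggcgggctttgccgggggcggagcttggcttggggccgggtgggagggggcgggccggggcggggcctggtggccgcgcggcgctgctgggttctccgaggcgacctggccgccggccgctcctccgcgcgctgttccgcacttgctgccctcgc
ADAMTS12, chr5:33891941-33892240, minus strand: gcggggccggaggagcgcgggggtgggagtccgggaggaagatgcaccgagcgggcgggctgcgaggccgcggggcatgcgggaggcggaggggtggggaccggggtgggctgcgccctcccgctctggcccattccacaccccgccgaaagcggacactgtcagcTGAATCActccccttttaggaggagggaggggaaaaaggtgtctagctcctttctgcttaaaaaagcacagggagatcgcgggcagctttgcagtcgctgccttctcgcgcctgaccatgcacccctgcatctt

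The ADAMTS12 promoter held 1 match to the loose AP-1 form, whose first base lies at -84 from the start. It reads TGAATCA, and its middle A is the base that the search left free. The ADAMTSL4 and ADAM15 promoters each held 1 SMAD element, at -176 and -248. None of the 3 windows held the NF-kB motif, and the marked matches overlapped no match to the other motifs searched. Among 35116 promoters of the same length, 25.6% held the NF-kB motif, 7.71% the AP-1 motif and 19.2% the SMAD element. Among 24 promoters of 23 kept members, 8 held the NF-kB motif, 1 the AP-1 motif and 11 the SMAD element. The Sp1 GC box GGGCGG, also searched, was in 20 of the 24 and in 45.0% of all promoters. The members' windows were richer in G and C than most, with a median of 73.3% against 58.7% over all promoters, so matches to motifs made of G and C come more readily in them. A match is a description of the letters and not a binding site.

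The family took 0.132% and 0.12% of counts in shGREM1 and 0.138% and 0.14% in shControl. Levels can be compared between genes only per length, and the sum over the 44 members was 167 and 149 CPM per kb of exon in shGREM1 and 176 and 174 in shControl. The 5 most abundant members, ADAM9, ADAM19, ADAMTS12, ADAM15 and ADAMTS10, made up 61.7% to 63.2% of that sum in shGREM1 and 58.0% to 59.8% in shControl. Mean levels over the 4 libraries ran from 36.6 CPM per kb for ADAM9 to 0.108 for ADAMTS1 among the kept members. ADAM10, at 10.4 CPM per kb, is divided by an exon length of 16168 bases, so its rank depends on how much of that length is used.

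**Figure D1:**
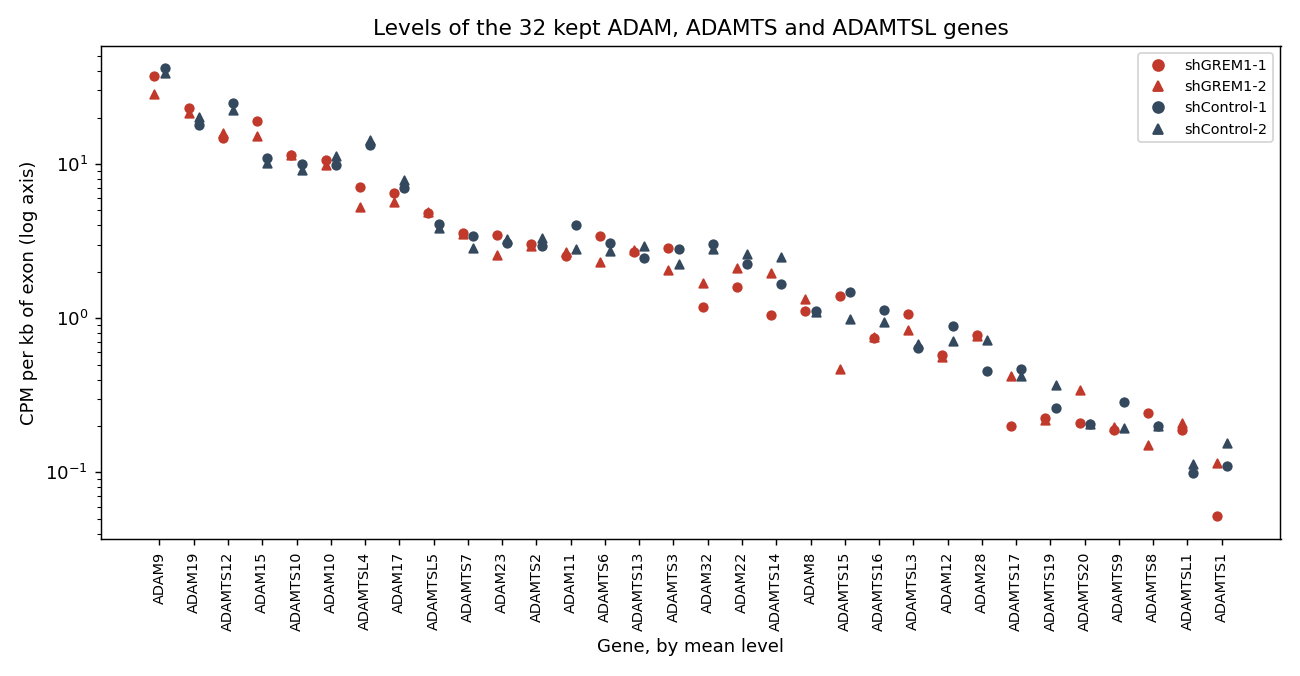
Level of each of the 32 kept genes in every library, in CPM per kb of exon on a log axis, with genes ordered by mean level, circles for replicate 1 and triangles for replicate 2, shGREM1 in red and shControl in dark blue. ADAM9 is highest at a mean of 36.6 CPM per kb, and ADAMTS1 lowest at 0.108.

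Among the ADAM sheddases, ADAM15 rose in shGREM1. Its product is also called metargidin, after an integrin-binding RGD sequence in its disintegrin domain. ADAM15 (ENSG00000143537, chromosome 1, 155050566 to 155062775, plus strand, GRCh38) had 125 and 99.5 CPM in shGREM1 against 71.7 and 66.6 CPM in shControl. Both shGREM1 libraries lay above both shControl libraries, and the shGREM1 libraries stood further apart from each other. The means were 112 ± 18.2 CPM in shGREM1 and 69.1 ± 3.61 CPM in shControl (SD, n = 2 each), a 1.63-fold level (log2 fold change 0.70 ± 0.12, SE; edgeR adjusted p = 0.00299). ADAM15 shares 306 exon bases, 4.65% of its own, with DCST1 on the same strand, a gene at a mean of 0.954 CPM.

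The other 7 kept sheddases did not pass. ADAM9, the most abundant member and a sheddase of broad expression, had 258 and 197 CPM in shGREM1 and 289 and 269 CPM in shControl. Its groups did not overlap, but the gap between the shGREM1 libraries was wider than the gap between the groups, and the log2 fold change was -0.29 ± 0.13 (SE; edgeR adjusted p = 0.181). ADAM9 fell when shGREM1-1 was left out (log2 fold change -0.50, edgeR adjusted p = 0.0017) and was at -0.11 without shGREM1-2. ADAM19, an enzyme that cuts neuregulin in mouse cells, had 177 and 165 CPM in shGREM1 and 138 and 156 CPM in shControl (log2 fold change 0.22, edgeR adjusted p = 0.248).

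ADAM10 and ADAM17 are the best studied sheddases, ADAM10 for Notch receptors and cadherins and ADAM17 for TNF and several ligands of the EGF receptor. ADAM10 had 171 and 159 CPM in shGREM1 and 160 and 184 CPM in shControl, and the groups overlapped (log2 fold change -0.06 ± 0.11, SE; edgeR adjusted p = 0.811). ADAM17 had 69.7 and 61.4 CPM in shGREM1 and 74.8 and 85.1 CPM in shControl, with no overlap (log2 fold change -0.29, edgeR adjusted p = 0.153). It shares 1323 exon bases, 12.3% of its own, with IAH1 on the opposite strand, at a mean of 19.1 CPM, and no strand setting is given for the counts. The low-level sheddase genes ADAM28, ADAM8 and ADAM12 had log2 fold changes of 0.40, 0.14 and -0.50. ADAM33 had 2 and 0 counts in shGREM1 and 0 in both shControl libraries. Summed over the 8 kept sheddases, the level was 98.9 and 83.2 CPM per kb in shGREM1 and 89.8 and 91.1 in shControl, so the groups overlapped.

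All 4 kept ADAM genes without a catalytic motif had a negative log2 fold change, and 1 of them, ADAM32, fell. ADAM32 (ENSG00000197140, chromosome 8, 39106990 to 39284911, plus strand) encodes a protein described chiefly in testis and sperm. It had 11.8 and 17.0 CPM in shGREM1 and 30.6 and 28.2 CPM in shControl. The groups were separated by more than the gap within either of them. The means were 14.4 ± 3.68 CPM in shGREM1 and 29.4 ± 1.65 CPM in shControl (SD, n = 2 each; log2 fold change -1.03 ± 0.17, SE; edgeR adjusted p = 0.0025). ADAM32 begins 1846 bases after the end of ADAM9 on the same strand and shares no exon base with another gene of the table. Its level per length was 1.44 CPM per kb in shGREM1 and 2.93 in shControl, against 32.9 and 40.3 CPM per kb for ADAM9, and whether reads of ADAM9 run into it was not tested.

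ADAM11, ADAM22 and ADAM23, which are neural adhesion proteins and in the case of ADAM22 and ADAM23 receptors for LGI proteins, did not pass. Their log2 fold changes were -0.40, -0.39 and -0.08. ADAM22 had 19.4 and 25.9 CPM in shGREM1 and 27.3 and 32.1 CPM in shControl (edgeR adjusted p = 0.16). ADAM22 fell in the fit without shGREM1-2 (log2 fold change -0.61, edgeR adjusted p = 0.011). Members of the fertilin type and others expressed mainly in testis or epididymis were near the limit of detection. ADAM2 and ADAM30 had 0 counts in all 4 libraries, ADAM7, ADAM18 and ADAM29 had 1, 6 and 3 counts in total, and ADAM20 and ADAM21 had 13 and 19. A count of 0 over a group has an exact 95% Poisson upper limit of 3.69 counts, which covers counting error only.

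ADAMTS12 was the 1 ADAMTS gene that was called. It encodes a secreted protease that, like ADAMTS7, cuts cartilage oligomeric matrix protein (COMP). ADAMTS12 (ENSG00000151388, chromosome 5, 33523535 to 33892192, minus strand) had 145 and 156 CPM in shGREM1 and 243 and 218 CPM in shControl. Both shGREM1 libraries lay well below both shControl libraries. The means were 150 ± 7.44 CPM in shGREM1 and 230 ± 17.5 CPM in shControl (SD, n = 2 each), a level 1.53-fold higher in shControl (log2 fold change -0.62 ± 0.11, SE; edgeR adjusted p = 0.00301). ADAMTS12 stood at 15.4 CPM per kb in shGREM1 and 23.6 CPM per kb in shControl and was the most abundant ADAMTS gene. Its closest relative ADAMTS7 had 27.5 and 27.2 CPM in shGREM1 and 26.3 and 22.2 CPM in shControl, and its difference did not reach the threshold (log2 fold change 0.17; edgeR adjusted p = 0.516). COMP itself had 0 counts in all 4 libraries.

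**Figure D2:**
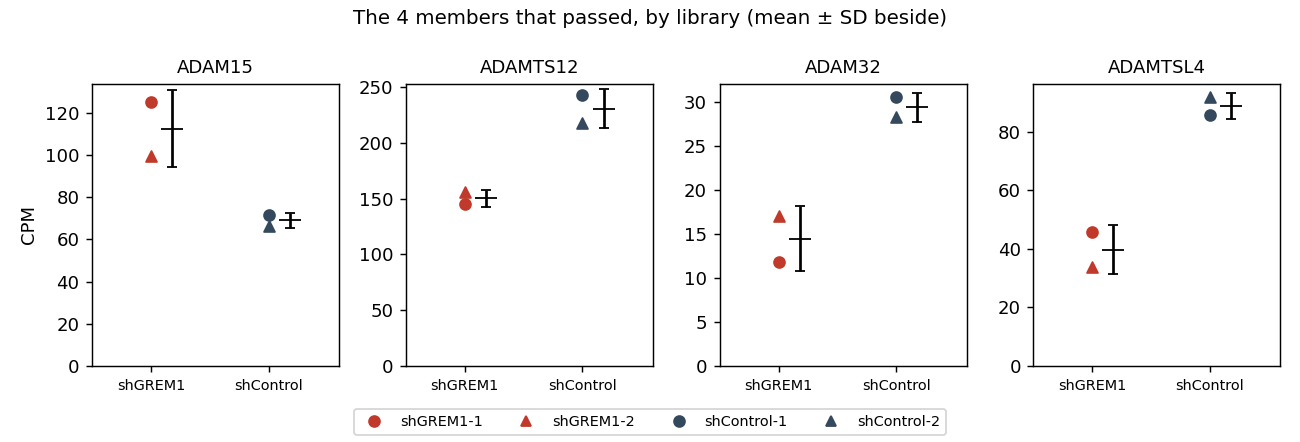
CPM of ADAM15, ADAMTS12, ADAM32 and ADAMTSL4 in each library, with shGREM1 left of shControl and the mean ± SD (n = 2) drawn beside the points, on axes that start at 0. The libraries of the groups do not overlap in any of the 4 genes: ADAM15 is higher in shGREM1 at 112 against 69.1 CPM, and the other 3 are lower.

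The procollagen N-proteinases, which trim the amino-terminal propeptides of fibrillar procollagens, did not pass. ADAMTS2 had 26.5 and 25.8 CPM in shGREM1 and 25.7 and 28.9 CPM in shControl (log2 fold change -0.06 ± 0.14, SE; edgeR adjusted p = 0.845), so its groups overlapped. ADAMTS3 was at 20.6 and 14.7 CPM in shGREM1 and 20.2 and 16.1 CPM in shControl, with a log2 fold change of -0.04. ADAMTS14, a minor enzyme of the same kind, was at 5.55 and 10.3 CPM in shGREM1 and 8.81 and 13.2 CPM in shControl. Its log2 fold change was -0.47 with all libraries, -0.99 without shGREM1-2 (edgeR adjusted p = 0.00586) and -0.09 without shGREM1-1. Their summed level was 6.97 CPM per kb in each shGREM1 library and 7.44 and 8.07 in shControl.

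The proteoglycan-cutting ADAMTS genes were low in these cells, and 0 of the 5 kept passed. Of the genes for the 2 main aggrecanases, ADAMTS5 had 1 and 13 counts in shGREM1 and 9 and 8 in shControl. ADAMTS4 had 0 counts in both shGREM1 libraries and 9 and 2 counts in shControl. It was not kept, and it did not pass when it was tested without a count filter (edgeR adjusted p = 0.153). ADAMTS15 was the most abundant of them, at 7.87 and 2.67 CPM in shGREM1 and 8.36 and 5.64 CPM in shControl. Its log2 fold change of -0.41 depended on which shGREM1 library was used, at -1.39 without shGREM1-1 (edgeR adjusted p = 0.00261) and 0.17 without shGREM1-2. ADAMTS1, ADAMTS8, ADAMTS9 and ADAMTS20 had log2 fold changes of -0.67, -0.02, -0.31 and 0.43. The 5 kept genes summed to 2.08 and 1.28 CPM per kb in shGREM1 and 2.27 and 1.75 in shControl.

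ADAMTS10, which binds fibrillin 1 and takes part in microfibril assembly, was the second most abundant ADAMTS gene and did not pass. It had 65.8 and 65.0 CPM in shGREM1 and 56.9 and 52.3 CPM in shControl, without overlap (log2 fold change 0.26 ± 0.11, SE; edgeR adjusted p = 0.179). ADAMTS6, its closest relative, overlapped between groups (log2 fold change -0.02), and the lower ADAMTS17 and ADAMTS19 were at -0.53 and -0.51. ADAMTS13, the von Willebrand factor-cleaving protease of plasma, was at 15.4 and 15.9 CPM in shGREM1 and 14.1 and 16.8 CPM in shControl (log2 fold change 0.02). ADAMTS16 had a log2 fold change of -0.47 without passing, and ADAMTS18 had 17 counts in total.

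ADAMTSL4 had the largest called difference of the family. It encodes a secreted protein that binds fibrillin 1, promotes microfibril assembly and is mutated in inherited lens dislocation. ADAMTSL4 (ENSG00000143382, chromosome 1, 150549369 to 150560937, plus strand) had 45.6 and 33.8 CPM in shGREM1 and 85.7 and 92.0 CPM in shControl. The higher shGREM1 library was far below the lower shControl library. The means were 39.7 ± 8.35 CPM in shGREM1 and 88.8 ± 4.45 CPM in shControl (SD, n = 2 each), a level 2.24-fold higher in shControl (log2 fold change -1.16 ± 0.14, SE; edgeR adjusted p = 0.000172). It shares 736 exon bases, 11.4% of its own, with ADAMTSL4-AS1 on the opposite strand, which had 29 and 17 counts in shGREM1 and 24 and 25 in shControl.

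The other 3 kept ADAMTSL genes had positive log2 fold changes and did not pass. ADAMTSL5 had 17.6 and 17.7 CPM in shGREM1 and 14.8 and 14.0 CPM in shControl (log2 fold change 0.29, edgeR adjusted p = 0.308). ADAMTSL3, also called punctin 2, had 10.4 and 8.15 CPM in shGREM1 and 6.28 and 6.61 CPM in shControl (log2 fold change 0.53, edgeR adjusted p = 0.174). ADAMTSL1, or punctin, was lower, at 2.56 and 2.86 CPM in shGREM1 and 1.36 and 1.55 CPM in shControl (log2 fold change 0.89 ± 0.38, SE; edgeR adjusted p = 0.172). In all 3 both shGREM1 libraries were above both shControl libraries, which 27.0% of all genes tested also showed. ADAMTSL2 had 4 and 21 counts in shGREM1 and 8 and 3 in shControl and was not kept. Because ADAMTSL4 was the most abundant of them, the 4 kept genes together stood at 13.2 and 11.2 CPM per kb in shGREM1 and 18.2 and 19.0 in shControl.

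**Figure D3:**
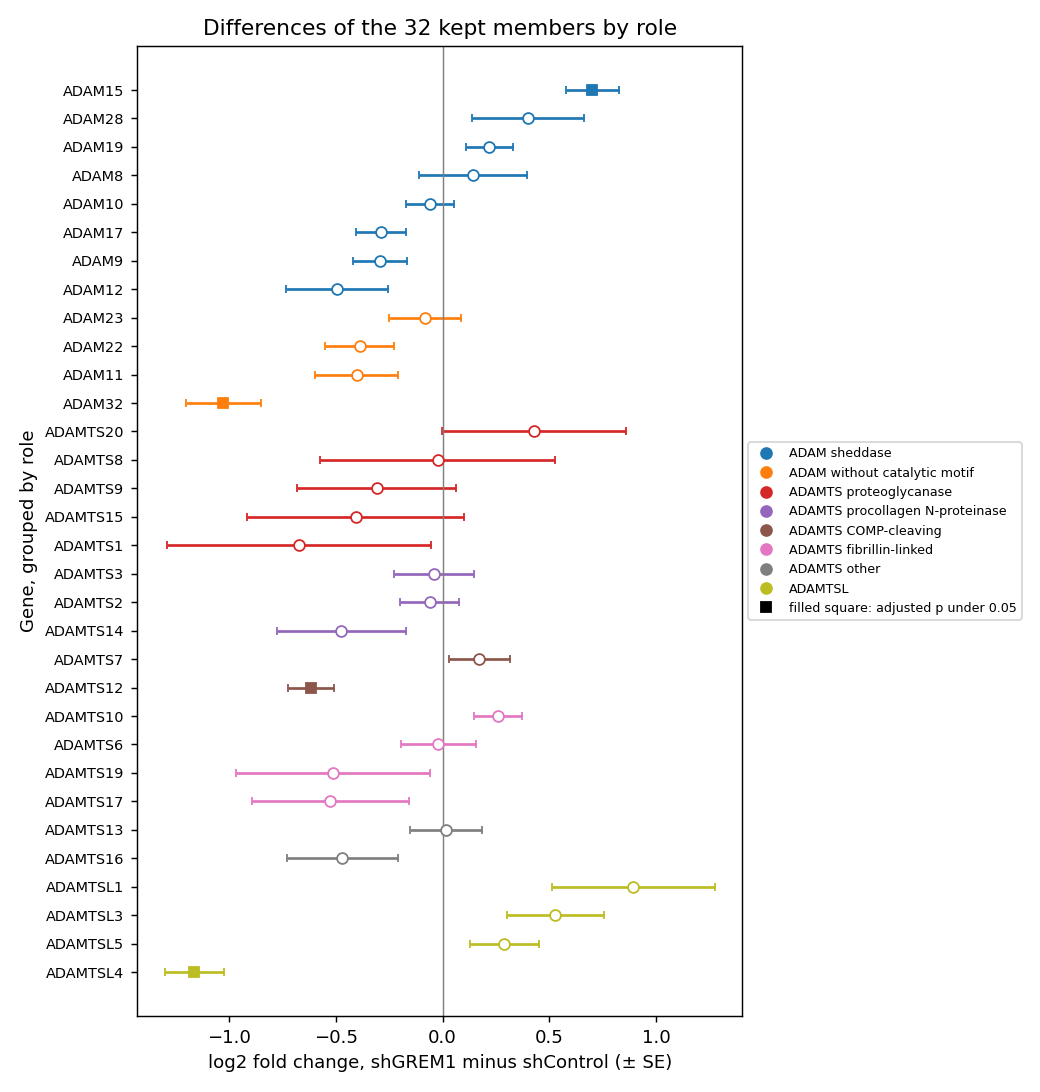
Log2 fold change (shGREM1 minus shControl) ± SE of the 32 kept members, grouped and coloured by role, with filled squares for an adjusted p under 0.05. ADAM15 at 0.70 is the filled square right of 0, and ADAM32, ADAMTS12 and ADAMTSL4 lie left of it.

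Among the members, 7 pairs lie within 200 kb of each other, and 1 called gene, ADAM32, belongs to such a pair. In that pair, the closest of the 7, ADAM9 and ADAM32 had log2 fold changes of -0.29 and -1.03. ADAMTS8 and ADAMTS15, 19981 bases apart on chromosome 11 and on opposite strands, were at -0.02 and -0.41. ADAMTS1 and ADAMTS5, 72503 bases apart on chromosome 21, both had few counts.

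Proteins that act with the ADAMs showed 1 fall and 1 rise. Of 13 listed partners and activating convertases, 12 were kept and 10 of those did not pass, which makes 16.7% called beside 7.69% of all genes tested, and their median log2 fold change was -0.33, 10 members being below 0. TSPAN5, a tetraspanin of the group that carries ADAM10 to the cell surface, had 71.1 and 54.2 CPM in shGREM1 and 110 and 107 CPM in shControl (log2 fold change -0.79, edgeR adjusted p = 0.00181). PCSK5, a proprotein convertase, had 31.6 and 38.6 CPM in shGREM1 and 21.8 and 26.2 CPM in shControl (log2 fold change 0.55, edgeR adjusted p = 0.0365). PCSK5 was not called once shControl-1 (edgeR adjusted p = 0.276) or shGREM1-2 (edgeR adjusted p = 0.128) was left out, nor with DESeq2 (adjusted p = 0.0594) or limma-voom (adjusted p = 0.0525). The convertase FURIN, which removes the prodomain of many ADAM and ADAMTS proteins, was at -0.32 (edgeR adjusted p = 0.0856), and the ADAM10-binding tetraspanin gene TSPAN17 at 0.10. RHBDF2 and FRMD8, whose products escort ADAM17 to the surface, had log2 fold changes of -0.34 and -0.39 (edgeR adjusted p = 0.0775 and 0.0616). RHBDF1, listed with them, had 91.2 and 120 CPM in shGREM1 and 112 and 111 CPM in shControl. Its groups overlapped (log2 fold change -0.08, edgeR adjusted p = 0.781). The number of fallen genes in this list was 1 to 3 over the alternatives, with TSPAN5 among them each time. FRMD8 fell in 3 alternatives, TSPAN14 in 4, and TSPAN10 and FURIN in 1 each, the last without shGREM1-2 (edgeR adjusted p = 0.0254).

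The metalloproteinase inhibitors did not pass, with 4 of 5 kept. TIMP3, the main inhibitor of ADAM and ADAMTS enzymes among the TIMPs, had 192 and 219 CPM in shGREM1 and 181 and 196 CPM in shControl (log2 fold change 0.12). TIMP1 had 1207 and 1648 CPM in shGREM1 and 1693 and 2221 CPM in shControl (log2 fold change -0.46, edgeR adjusted p = 0.159), and TIMP2 had a log2 fold change of 0.03. TIMP1 fell in 3 of the 13 alternatives, among them the fits without shGREM1-2 (log2 fold change -0.70, edgeR adjusted p = 3.16e-08) and without a count filter (edgeR adjusted p = 0.0011).

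Substrates of the sheddases were mostly below 0. Of 26 listed, 25 were kept, 1 rose, 4 fell and 20 did not pass, which makes 20% called beside 7.69% of all genes tested, and the median log2 fold change was -0.40 with 18 below 0. L1CAM, a neural adhesion molecule cut by ADAM10, rose to 492 and 475 CPM in shGREM1, against 255 and 214 CPM in shControl (log2 fold change 1.04, edgeR adjusted p = 7.95e-05). JAG1, a Notch ligand, fell to 75 and 63.7 CPM in shGREM1, against 137 and 139 CPM in shControl (log2 fold change -0.995, edgeR adjusted p = 0.000106). CD44, the hyaluronan receptor, fell to 178 and 168 CPM in shGREM1, against 294 and 290 CPM in shControl (log2 fold change -0.76, edgeR adjusted p = 0.000563). In these 3 genes the groups were far apart and the libraries within a group close together.

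The other falls among the substrates were at very low counts. TNF had 7 and 2 counts in shGREM1 and 16 and 28 in shControl (edgeR adjusted p = 0.0482), and VCAM1 had 1 and 0 counts in shGREM1 and 14 and 10 in shControl (edgeR adjusted p = 0.0234). TNF did not pass without shControl-1, without shControl-2 or without shGREM1-2 (edgeR adjusted p = 0.103, 0.388 and 0.17), with limma-voom (adjusted p = 0.071) or without robust estimation (edgeR adjusted p = 0.0602). VCAM1 did not pass without shControl-2 or without shGREM1-2 (edgeR adjusted p = 0.126 and 0.141) and was below the count filter without shControl-1. Both were removed by the mean CPM filter, and DESeq2 gave neither an adjusted p. EREG, the epiregulin gene, had 28.98 and 41.97 CPM in shGREM1 and 51.9 and 74.7 CPM in shControl and did not pass (log2 fold change -0.84 ± 0.24, SE; edgeR adjusted p = 0.107), but it fell in 8 of the 13 alternatives, DESeq2 and limma-voom among them. CX3CL1 and HBEGF, at log2 fold changes of -0.81 and -0.68, did not pass in the reported fit either (edgeR adjusted p = 0.144 and 0.139). Both fell without a count filter and with a replicate block, and CX3CL1 also with limma-voom and without robust estimation. Of the substrates that did not pass, the adhesion molecule ALCAM and the receptor gene NOTCH2 had the highest CPM, not divided by length. Log2 fold changes of these 2 genes were -0.06 and 0.05. In fits without 1 library, the number of fallen substrates ran from 2 without shControl-2 to 10 without shGREM1-1.

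Substrates and partners of the ADAMTS proteins moved upward where they were called. Of 13 listed, 12 were kept, 5 rose, 0 fell and 7 did not pass, which makes 41.7% called beside 7.69% of all genes tested. A positive log2 fold change was seen in 10 of them (median of the kept genes 0.51). This list, like those above, was chosen with earlier results of these data known and was not tested as a set. The risen genes include ACAN, the aggrecan gene, which had 19.9 and 22.7 CPM in shGREM1 and 12.4 and 10.9 CPM in shControl (log2 fold change 0.87 ± 0.17, SE; edgeR adjusted p = 0.00539). COL5A1, a fibrillar collagen gene, had 305 and 333 CPM in shGREM1 and 249.4 and 197 CPM in shControl (log2 fold change 0.51, edgeR adjusted p = 0.0193). COL1A1 had 764 and 926 CPM in shGREM1 and 615 and 577 CPM in shControl (log2 fold change 0.50, edgeR adjusted p = 0.0172). In these 3 genes the groups did not overlap. COL3A1, whose propeptide is a substrate of ADAMTS2, had 143 and 105 CPM in shGREM1 and 28.1 and 40.4 CPM in shControl (log2 fold change 1.86 ± 0.22, SE; edgeR adjusted p = 0.00546). FBN1, the fibrillin 1 gene, had 58.8 and 49.7 CPM in shGREM1 and 18.5 and 19.5 CPM in shControl (log2 fold change 1.51 ± 0.14, SE; edgeR adjusted p = 1.26e-05). These were the widest called differences of the list, and the fibrillin-binding members ADAMTS10 and ADAMTSL4 were at 0.26 and -1.16 on the same log2 scale. FBN2 and the brain proteoglycan gene BCAN did not pass, at 0.15 and 0.36. Without shControl-2, 3 of these genes rose, and COL5A1 (edgeR adjusted p = 0.241) and COL1A1 (edgeR adjusted p = 0.166) did not pass. COL1A1 also missed the threshold when shControl-1 was left out (edgeR adjusted p = 0.0996). VCAN, the versican gene and the target of several of the proteoglycan-cutting enzymes, was at 0.549 and 0.995 CPM in shGREM1 and 0.777 and 1.10 CPM in shControl.

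**Figure D4:**
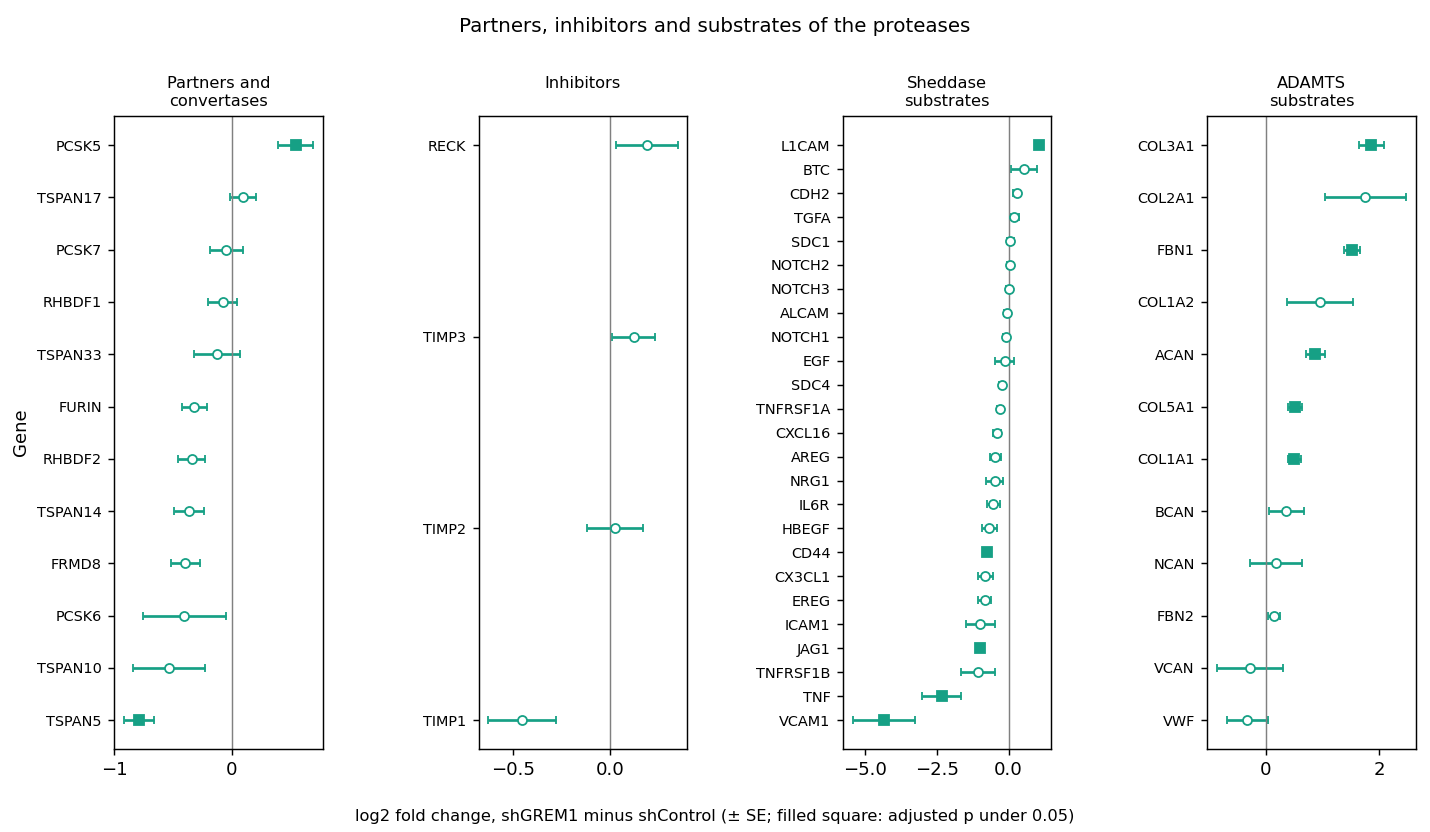
Log2 fold change (shGREM1 minus shControl) ± SE of the kept partners and convertases, inhibitors, sheddase substrates and ADAMTS substrates, with filled squares for an adjusted p under 0.05 and a separate horizontal scale in each panel. Of the ADAMTS substrates 5 are filled and right of 0, and of the sheddase substrates 4 are filled and left of 0.

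The 4 member calls were the same under each of the 13 alternatives tried. The log2 fold change of ADAM15 ran from 0.53 to 0.86, that of ADAMTSL4 from -1.40 to -0.96, that of ADAM32 from -1.31 to -0.79 and that of ADAMTS12 from -0.70 to -0.54. The highest adjusted p among the alternatives was 0.0168 for ADAM15, 0.000822 for ADAMTSL4, 0.0119 for ADAM32 and 0.0306 for ADAMTS12, the last without shControl-1. The members called in 1 alternative alone were ADAM9, ADAM22, ADAMTS14 and ADAMTS15, each in a fit without 1 shGREM1 library, in which the spread comes from shControl alone.

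**Figure D5:**
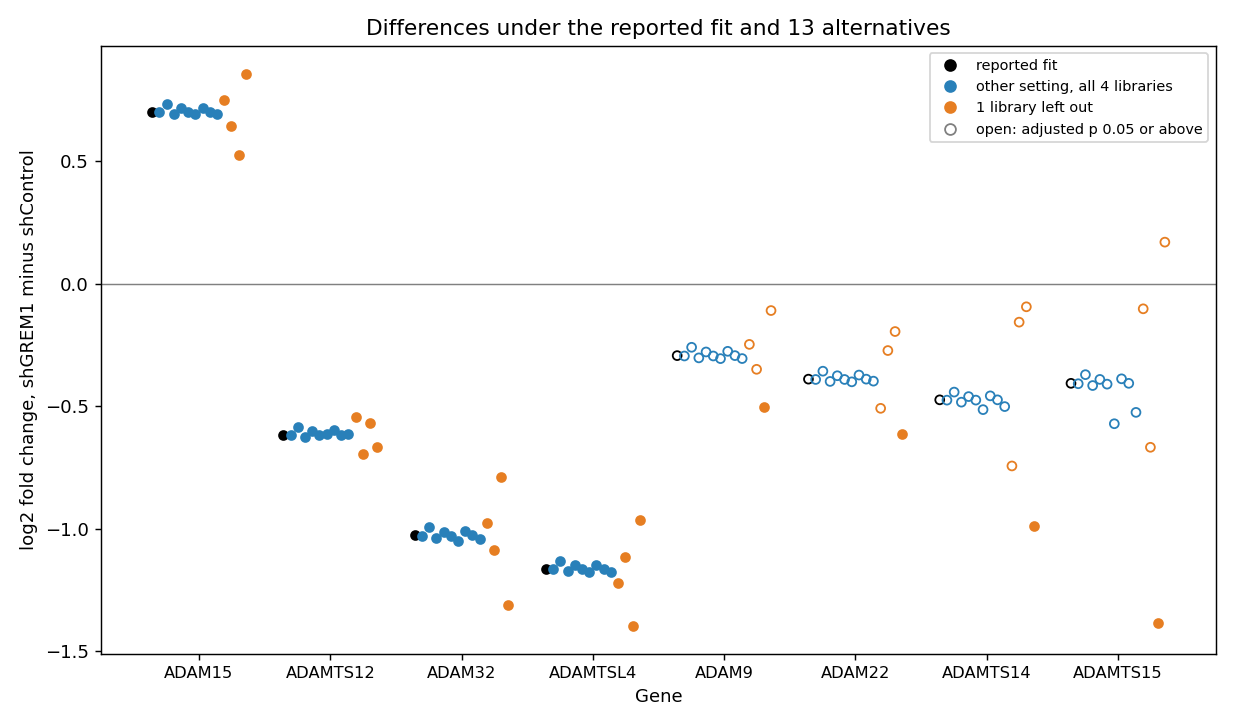
Log2 fold change (shGREM1 minus shControl) of the 4 called members and of the 4 members called in 1 alternative alone, under the reported fit (black), settings that keep all 4 libraries (blue) and fits without 1 library (orange), with open circles for an adjusted p of 0.05 or above. The 4 called genes are filled throughout, while ADAMTS15 runs from -1.39 to 0.17.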

How the data were processed

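RNA-seq libraries came from 2 shGREM1 and 2 shControl samples. The authors deposited raw counts per gene, the SMARTER mRNA-Seq kit having been used for the libraries, per the labels' protocols. HISAT2 2.0.5, StringTie 1.3.3b, DESeq2 and the mouse build mm10 are named in the submitters' processing notes, while all 58735 genes match GENCODE 29 (GRCh38) in identifier, start, end and strand. Which program counted the reads, and whether by strand, is not given in the sources used here. The columns SHG11 and SHG12 were taken as shGREM1-1 and shGREM1-2, and NC1 and NC2 as shControl-1 and shControl-2, on their abbreviations alone. The deposited gene length equals the union of the exons of each member.

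With edgeR 4.0.16 in R 4.3.3, filterByExpr (minimum count 10, minimum total 15) kept 18442 genes, libraries were scaled by TMM (factors 0.987 to 1.01), and 1 robust quasi-likelihood fit, with no covariate beside the group, covered all of them. A log2 fold change is shGREM1 minus shControl, and its SE is its size divided by the root of F. Alternatives were relative log expression and upper-quartile scaling, omitting the count filter, filtering on a mean CPM of 5, DESeq2 1.42.0, limma-voom (limma 3.58.1), a fit of protein-coding genes alone, one without robust estimation, one with a replicate block, and leaving out each library. In fits without 1 library, the group left with 1 library borrows the spread of the other group, so a call gained there is not evidence of a change.

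The members, the lists of partners, inhibitors, substrates and markers and the tests were chosen with earlier results of these data known, so no list was tested. One leukocyte marker is not reported here. Values by library are given for members that passed and for the 3 others of each family with the highest level per length. Members outside this rule, among them ADAM17, ADAM22, ADAMTS3, ADAMTS13, ADAMTS14, ADAMTS15 and ADAMTS4, were added after their values were seen. So were RHBDF1, RHBDF2, FRMD8, TSPAN10, TSPAN14, CX3CL1, EREG, HBEGF, TIMP3 and VCAN. The biological coefficient of variation was 11.4%. Counts simulated for this comparison, with 17979 genes in the fit, gave back 38.8% of 67 genes altered 1.5-fold. They gave back 59.7% of the 67 at 2-fold and 87.9% of the 66 at 4-fold, and 1.59% of calls were false. The simulation took each gene's spread from a trend over all genes and altered only these genes, whereas 1418 were called in the data. Its rates may therefore not hold for the data. Drawing used matplotlib 3.10.9 and Python 3.11.15.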

Additional observations from a re-analysis of the deposited data

How the results depend on the processing

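Of the results on all genes and on the members, 54 of 65 values under the alternatives stayed within 1.5 times the reported count or within the spread of the median. The number of fallen genes over the whole table, 759, became 1142 without a count filter. With a replicate block there were 1101 risen and 1273 fallen genes. Whether the numbers 1 and 2 pair the samples is not known. Pearson's r was -0.00703 between the deviations of same-numbered libraries, across 18442 genes, which does not settle it. The same 4 members were called with the block, while TIMP1 (edgeR adjusted p = 0.00351) and PAPLN (edgeR adjusted p = 0.0245) were called as well. In fits without 1 library, the counts ran from 266 to 998 risen and from 382 to 1112 fallen genes, the lowest without shControl-1 and the highest without shGREM1-1. Fallen members ran from 3 to 5 and risen members were 1 in each of these fits. The members' median log2 fold change ran from -0.20 without shGREM1-1 to -0.0068 without shGREM1-2. In these fits the log2 fold change of 8 of the 32 kept members took both signs. With no call, it did so for ADAM10 (-0.16 without shControl-1 and 0.039 without shControl-2), ADAMTS2 (-0.15 without shControl-1 and 0.020 without shControl-2), ADAM23 (-0.32 to 0.12), ADAMTS3 (-0.30 to 0.18), ADAMTS6 (-0.32 to 0.23), ADAMTS8 (-0.40 to 0.27) and ADAMTS13 (-0.12 to 0.15), and the other is ADAMTS15, described above. Among the list genes named by the rule it did so for BCAN (-0.035 without shGREM1-1 and 0.79 without shControl-1) and TIMP2 (0.26 without shGREM1-1 and -0.25 without shGREM1-2). The cause was not tested. Members at low counts have wide errors with 2 libraries per group, and a difference of the size of its SE cannot be told from 0.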

Other observations

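Rows of the table with an ADAM name outside the rule held few reads. Of the 19 such rows, 9 had 0 counts in all 4 libraries. The highest counts were those of ADAMTSL4-AS1, which lies on the strand opposite to ADAMTSL4, with 29 and 17 counts in shGREM1 and 24 and 25 counts in shControl. The pseudogenes ADAM20P1 and ADAM5 had 29 and 26 counts in total. Among relatives whose names fall outside the rule, PAPLN, which encodes the ADAMTS-like protein papilin, had 23.0 and 20.2 CPM in shGREM1 and 28.5 and 31.3 CPM in shControl (log2 fold change -0.47, edgeR adjusted p = 0.0599). PAPLN was called in 3 of the 13 alternatives, among them the fits without a count filter (edgeR adjusted p = 0.0302) and without shGREM1-1 (edgeR adjusted p = 0.0205). THSD4, also known as ADAMTSL6 and a binder of fibrillin 1, had 3.54 and 2.80 CPM in shGREM1 and 4.79 and 6.09 CPM in shControl (log2 fold change -0.78, edgeR adjusted p = 0.12).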
